A study of Mus musculus with 18 samples.

Results

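RNA of 10 adhesion genes of lymphocytes was followed in mouse regulatory T cells (Treg) from mice labelled with different conditional deletions. The genes were 8 integrin subunits (Itga4, Itgb1, Itgb7, Itgae, Itgal, Itgb2, Itga6 and Itgb3), the selectin ligand gene Selplg and the hyaluronan receptor gene Cd44. They were taken by name and were 10 of the 35275 gene identifiers in the table. All 10 were found by symbol and all passed the filter on low values. Treg are CD4+ T cells defined by the transcription factor Foxp3, and they hold other immune cells in check. After CD4 column enrichment the cells were sorted by their yellow fluorescent protein (YFP), and the donors were males aged 6 to 8 weeks.

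The 18 libraries fall into 6 groups of 3, which the series text describes as independent biological replicates. Control animals were Foxp3YFPcre mice and are called wild type here. The other groups were labelled Dyrk1-fl/flFoxp3YFPcre, HDAC1-fl/flFoxp3cre, HDAC2-fl/flFoxp3cre, Mef2c-fl/flFoxp3cre and Mef2d-fl/flFoxp3cre, so cre driven by Foxp3 was present in every group, controls included. Deletion by this cre would be limited to cells that have expressed Foxp3. The label Dyrk1 does not say which DYRK1 gene was floxed, and the growth protocol speaks of an Rcor1 knockout that no group carries as its label.

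Integrins are heterodimers of an alpha and a beta chain that bind cells and matrix once they are activated from inside the cell. Integrin alpha4 pairs with beta7 to bind MAdCAM-1 on gut vessels or with beta1 to bind VCAM-1, alphaE pairs with beta7 to bind E-cadherin on epithelium, and alphaL pairs with beta2 to form LFA-1, the receptor for ICAM-1. PSGL-1, the product of Selplg, lets lymphocytes roll on P- and E-selectin once it carries the right sugars, and CD44 binds hyaluronan and marks activated T cells.

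Depth recovered from the values was 15.9 to 24.1 M reads per library. Values were taken to be FPKM, in which fragment numbers are divided by gene length and by depth. Levels can then be compared between genes as far as the gene lengths used hold. Hdac1 was at 27.8 to 36.5 FPKM in HDAC1-labelled libraries and 116.5 to 122.4 in wild type. Hdac2, Mef2c, Mef2d, Dyrk1a and Dyrk1b did not fall in the libraries labelled for them, although values over whole genes need not show a short deleted stretch. Mef2c was at 0.302, 0.571 and 0.554 FPKM in wild type, too low for a fall to be seen. In Dyrk1-labelled libraries Dyrk1b rose from 7.00 ± 0.466 to 11.8 ± 0.789 FPKM (log2 0.68, adjusted p 0.000679, limma) and Dyrk1a from 27.7 to 33.1 (log2 0.25, adjusted p 0.0352). Mef2d rose in Mef2d-labelled libraries from 41.7 to 53.4 FPKM (log2 0.35, adjusted p 0.00718, limma). Directions below are therefore those of libraries labelled HDAC2, Mef2c, Mef2d or Dyrk1. Foxp3 and the other 7 Treg markers averaged 6.57 to 6.87 on the log2(FPKM + 1) scale in the 18 libraries. Markers of B cells summed to 400.1 FPKM in Dyrk1 replicate 1, 134.3 in Mef2c replicate 1 and 183.4 in Mef2d replicate 1, against 29.9 to 50.2 in wild type. Of the genes that passed against wild type, 64.2% were higher in Dyrk1, 81.5% in HDAC1, 63.2% in HDAC2, 68.1% in Mef2c and 63.7% in Mef2d libraries. With a median-of-ratios (RLE) scaling these shares were 52.7%, 56.0%, 46.6%, 50.2% and 48.8%. With trends on gene length and GC content removed they were 46.2%, 44.6%, 45.0%, 48.8% and 47.5%.

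Against wild type, Itga4 rose in all 5 labelled groups and Selplg fell in all 5. Itgb1 rose in Mef2c-labelled and Itgb7 fell in Dyrk1-labelled libraries. Itgae, Itgal, Itgb2, Itga6, Itgb3 and Cd44 passed in 0 of the 5 comparisons with wild type. In Dyrk1-labelled libraries 3 of the 10 genes passed, where 17.3% of all 12223 genes tested passed. Of those 3, Itgb7 and Selplg were lower, a direction in which 6.19% of all genes passed. In HDAC1-labelled libraries 2 of 10 passed, against 12.5% of all genes. For HDAC2 the count was 2 of 10, against 25.6%, for Mef2c 3 of 10, against 19.0%, and for Mef2d 2 of 10, against 21.9%. These shares are close to those of all genes, given 10 members. The median log2 difference of the 10 genes was -0.04 in Dyrk1, 0.08 in HDAC1, 0.09 in HDAC2, 0.09 in Mef2c and 0.16 in Mef2d libraries, and the median of all genes tested was 0.02, 0.05, 0.05, 0.04 and 0.04. An F test over the 6 groups called 7 of the 10 genes, against 38.6% of all genes, and the 3 that did not pass were Itgal, Itgb2 and Cd44. The 5 comparisons share the same 3 wild-type libraries, so a wild-type value that is off moves all 5 together.

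**Figure D1:**
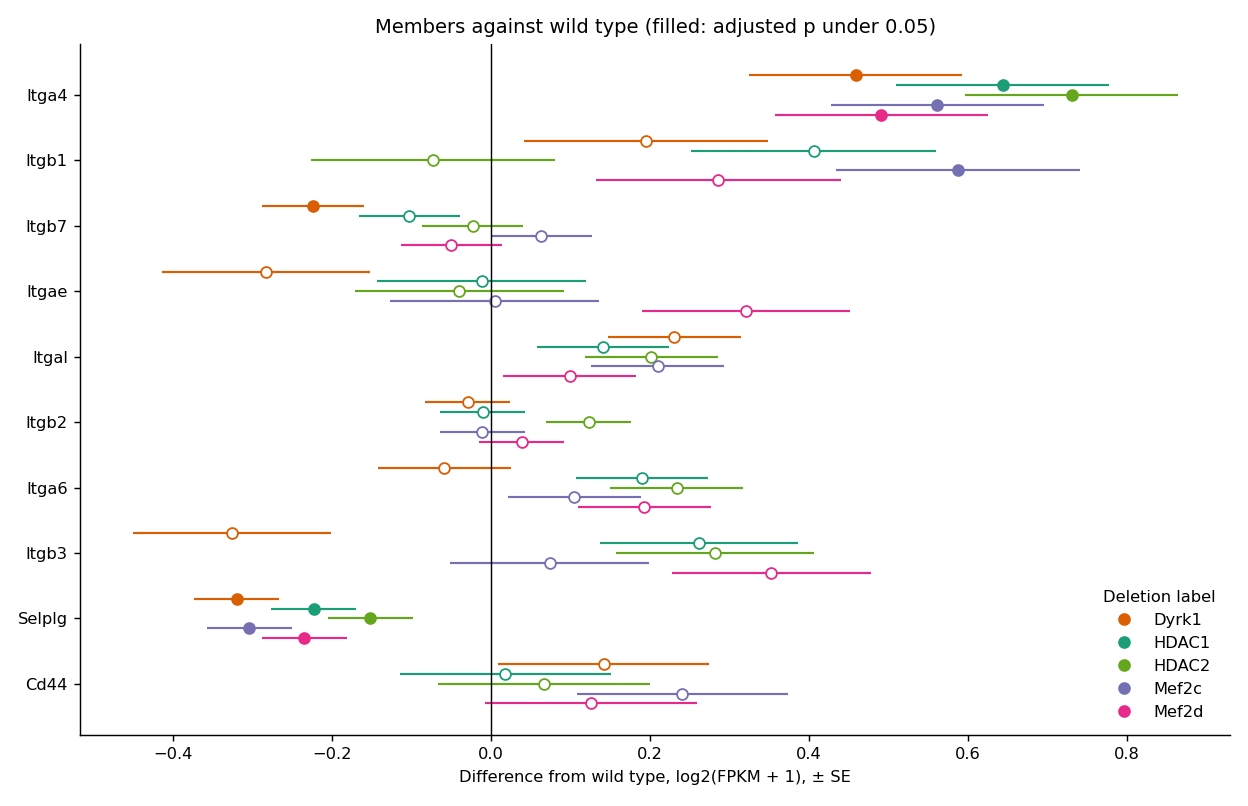
Difference of each labelled group from wild type for the 10 genes on the log2(FPKM + 1) scale, as points with the standard error of the fit, filled where the adjusted p is under 0.05. All 5 points of Itga4 lie right of 0 and all 5 of Selplg left of it, while most points of the other genes are open.

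Levels differed widely among the 10 genes. Over the 18 libraries the median level was highest for Itgb7, at 318 FPKM, followed by Itgb2 at 220.3, Itgal at 207 and Selplg at 199. Itgb1 had a median of 123 FPKM, Itga6 of 56.6, Itga4 of 47.8, Itgae of 39.9, Cd44 of 29.4 and Itgb3 of 18.2. The genes of LFA-1 and the beta7 chain were thus read at several times the level of the alpha4 and alphaE chains. The ratio of the highest to the lowest library was 2.26 for Itga4, 2.14 for Itgb3 and 2.07 for Itgae, and 1.22 for Itgb2, the least variable member. Reads behind a single value ran from 1344 for Itgb3 to 32654 for Itgal. Within groups the coefficient of variation was between 1.11% (Selplg, HDAC2) and 24.5% (Cd44, Dyrk1).

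**Figure D2:**
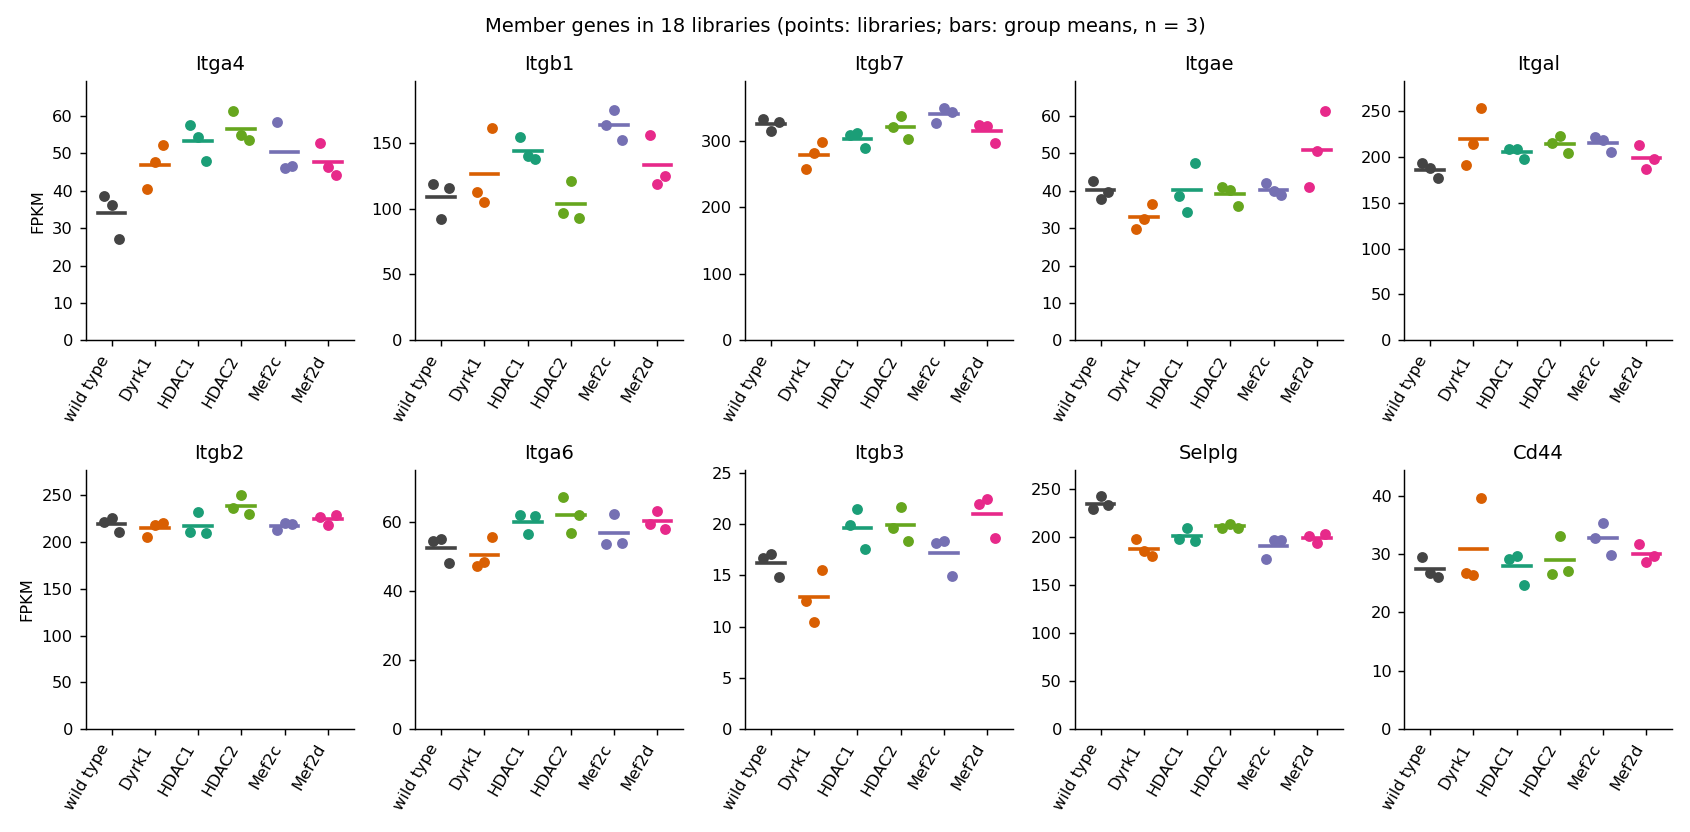
FPKM of the 10 genes in the 18 libraries, in a panel per gene, with points for libraries and bars for group means (n = 3). Wild-type points of Itga4, at 27.1 to 38.7 FPKM, lie under all others, and those of Selplg, at 228.8 to 241.9, lie above all others.

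Itga4 (ENSMUSG00000027009, chromosome 2, 79255426 to 79333123, plus strand) encodes the alpha4 chain of the gut and inflammatory homing integrins. Wild-type libraries held 38.7, 36.2 and 27.1 FPKM, and Dyrk1-labelled libraries 40.5, 47.7 and 52.4. HDAC1-labelled libraries were at 57.5, 54.3 and 47.9 FPKM and HDAC2-labelled ones at 61.4, 54.8 and 53.5. Mef2c-labelled libraries held 58.4, 46.1 and 46.7 FPKM and Mef2d-labelled ones 52.9, 46.4 and 44.1. Each of the 15 libraries with a deletion label lay above the highest wild-type library. Means were 34.0 ± 6.11 FPKM (SD, n = 3) in wild type and 56.6 ± 4.20 in HDAC2, the highest group. Of neighbours in the order wild type, Dyrk1, Mef2d, Mef2c, HDAC1, HDAC2, only wild type and Dyrk1 had ranges that did not overlap.

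For Itga4 the log2 difference from wild type was 0.73 in HDAC2 (SE 0.13, adjusted p 0.00305, limma) and 0.64 in HDAC1 (SE 0.13, adjusted p 0.00931, limma). It was 0.56 in Mef2c (adjusted p 0.0103), 0.49 in Mef2d (adjusted p 0.0191) and 0.46 in Dyrk1 (adjusted p 0.0303), each by limma with an SE of 0.13. The HDAC1 and HDAC2 calls held in all 25 alternatives, with differences of 0.40 to 0.74 and 0.49 to 0.83. The other calls were less stable. Wild-type replicate 3 held the lowest value, and without it the adjusted p in limma was 0.135 for Dyrk1, 0.0557 for Mef2c and 0.106 for Mef2d. The Dyrk1 call also ended without Dyrk1 replicate 2 (adjusted p 0.0718, limma) or 3 (0.111), the Mef2c call without Mef2c replicate 1 (0.0591) and the Mef2d call without Mef2d replicate 1 (0.0835). The Mef2d call ended as well with the 3 B-cell-rich libraries left out (adjusted p 0.0549, limma) and the Dyrk1 call with no filter on low genes (0.0593). Fits of 2 groups alone ended all 3 calls, with adjusted p-values in limma of 0.168 for Dyrk1, 0.0545 for Mef2c and 0.0544 for Mef2d. Removing trends on gene length and GC content lowered the Dyrk1 difference to 0.24 (adjusted p 0.12, limma) and the Mef2d difference to 0.25 (0.0984).

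Itga4 is a long transcript, with an exon union of 13978 bases, longer than 97.2% of the genes tested. The 998 tested genes of at least 10000 bases had a median log2 difference from wild type of 0.19 in Dyrk1, 0.21 in HDAC1, 0.22 in HDAC2, 0.16 in Mef2c and 0.21 in Mef2d libraries. The part of length in the Itga4 difference was tested only by that trend correction. Exons of Cerkl on the opposite strand share 1124 bases, 8.04% of the Itga4 exons, and reads there cannot be assigned if counting ignored strand. Cerkl itself was read at 0.656 to 1.4 FPKM.

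Markers of plasma cells moved with part of this pattern, and plasma cells can carry alpha4. The 6 markers summed to 489 to 1578 FPKM in wild type, 1979 to 6046 in HDAC1 and 3392 to 10562 in HDAC2 libraries. All 6 rose in HDAC2 and 2 of 6 in HDAC1, where 25.6% and 12.5% of all genes passed in either direction. In Mef2c and Mef2d libraries, where Itga4 also rose, the sums were 381 to 565 and 227 to 601 FPKM, and in Dyrk1 libraries 1041 to 1278. Their part in the HDAC1 and HDAC2 results was not tested. In bulk RNA a different number of cells of a type and a different amount of RNA per cell cannot be told apart.

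The 250 bases before the RefSeq start (GRCm38.p6) of Itga4, Itgb1 and Itgb7 are shown because alpha4 pairs with beta1 or with beta7 and the 3 RNAs did not move together. They are written 5′ to 3′ on the strand of the gene, from chr2:79255176-79255425 (plus), chr8:128685404-128685653 (plus) and chr15:102231936-102232185 (minus). Capitals mark matches on either strand to CACCC, the core of sites bound by Krüppel-like factors, GGGCGG, the GC box, and TGTGGT, the core of RUNX sites.
Itga4: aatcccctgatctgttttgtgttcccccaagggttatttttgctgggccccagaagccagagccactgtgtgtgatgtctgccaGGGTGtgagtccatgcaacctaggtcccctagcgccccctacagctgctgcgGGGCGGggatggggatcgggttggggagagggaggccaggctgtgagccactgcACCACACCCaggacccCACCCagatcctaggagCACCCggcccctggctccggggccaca
Itgb1: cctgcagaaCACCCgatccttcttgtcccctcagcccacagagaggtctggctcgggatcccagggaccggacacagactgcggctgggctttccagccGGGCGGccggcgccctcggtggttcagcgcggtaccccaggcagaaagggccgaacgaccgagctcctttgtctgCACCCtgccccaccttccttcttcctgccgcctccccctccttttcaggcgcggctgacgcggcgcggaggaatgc
Itgb7: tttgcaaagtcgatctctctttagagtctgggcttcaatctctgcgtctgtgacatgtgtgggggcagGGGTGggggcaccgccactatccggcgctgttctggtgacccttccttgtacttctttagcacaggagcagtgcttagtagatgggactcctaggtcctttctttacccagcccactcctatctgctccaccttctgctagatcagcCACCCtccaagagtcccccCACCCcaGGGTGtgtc
The Itga4 stretch holds 4 matches to CACCC, 1 to GGGCGG and 1 to TGTGGT, the last overlapping a CACCC match in the run ACCACACCC. Itgb1 has 2 matches to CACCC and 1 to GGGCGG, and Itgb7 has 4 to CACCC. A MEF2 site had 0 matches in these 3 stretches, which says only that those letters are not in this window. Among 32851 mouse promoter stretches of the same length, 52% hold CACCC, 32.7% GGGCGG, 14% TGTGGT and 2.92% a MEF2 site. The matches are a description of the letters.

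Itgb7 (ENSMUSG00000001281, chromosome 15, 102215995 to 102231944, minus strand) encodes the beta7 chain shared by the gut homing receptor and the alphaE integrin. Wild-type libraries held 333, 314.5 and 329 FPKM, and Dyrk1-labelled libraries 258, 281 and 298. In HDAC1 the values were 309, 312 and 289 FPKM, in HDAC2 321, 338 and 303. Mef2c libraries held 327, 350.1 and 344 FPKM and Mef2d libraries 324, 323 and 297.5. All 3 Dyrk1-labelled and all 3 HDAC1-labelled libraries lay under the lowest wild-type library, and ranges of neighbours in the order of group means overlapped throughout. The Dyrk1 mean of 279 ± 20.2 FPKM was lower than the wild-type mean of 326 ± 9.86 (SD, n = 3), a log2 difference of -0.22 (SE 0.06, adjusted p 0.0272, limma). The HDAC1 difference was -0.10 and did not pass (adjusted p 0.303, limma).

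That Itgb7 call was fragile. It ended without wild-type replicate 1 (adjusted p 0.0808, limma) or 3 (0.0763), and without Dyrk1 replicate 1 (0.0806) or 2 (0.0524). It also ended with length and GC trends removed (log2 -0.16, adjusted p 0.267, limma), with no filter (0.0506), with the 3 B-cell-rich libraries left out (0.0984) and in a fit of the 2 groups alone (0.201). In the direct comparisons Itgb7 was lower in Dyrk1 than in Mef2c by 0.29 on the log2 scale (adjusted p 0.00474, limma) and than in HDAC2 by 0.20 (adjusted p 0.0419). The Mef2c pair held with each library left out but ended with length and GC trends removed (adjusted p 0.0942, limma) and in a fit of the 2 groups alone (0.0923), and the HDAC2 pair was not past the threshold in 15 of 25 alternatives.

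Itgb1 (ENSMUSG00000025809, chromosome 8, 128685654 to 128733200, plus strand) encodes the beta1 chain, which pairs with alpha4, alpha6 and many matrix-binding alpha chains. It was at 119, 92.4 and 115.5 FPKM in wild type and at 163.5, 175 and 152 in Mef2c-labelled libraries. Dyrk1 libraries held 113, 105 and 161 FPKM, HDAC1 libraries 154.5, 139.8 and 137. HDAC2 libraries held 96.6, 121 and 93.1 FPKM and Mef2d libraries 156, 118.5 and 124.5. The Mef2c and HDAC1 ranges lay wholly above wild type, and the HDAC2 and wild-type ranges overlapped. In Mef2c the mean was 163 ± 11.4 FPKM against 109 ± 14.4 in wild type (SD, n = 3), a log2 difference of 0.59 (SE 0.15, adjusted p 0.0166, limma).

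The Mef2c call for Itgb1 ended without wild-type replicate 2 (adjusted p 0.0575, limma), Mef2c replicate 1 (0.055) or Mef2c replicate 2 (0.0592). The HDAC1 difference of 0.41 did not pass (adjusted p 0.0942, limma), except without Dyrk1 replicate 3 (0.0378), which left the difference itself unaltered. HDAC2 libraries were lower in Itgb1 than Mef2c libraries by 0.66 on the log2 scale (adjusted p 0.0155, limma), a call that ended without HDAC2 replicate 1 (0.0657), HDAC2 replicate 3 (0.0742) or Mef2c replicate 2 (0.0708). Between HDAC1 and HDAC2 the log2 difference was 0.48, with an unadjusted p of 0.00733 and an adjusted p of 0.16 in limma.

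Itgae (ENSMUSG00000005947, chromosome 11, 73090583 to 73147446, plus strand) encodes alphaE, known as CD103, which retains T cells in epithelium and is carried by a subset of Treg. Wild-type libraries held 42.7, 37.9 and 39.8 FPKM, Dyrk1 libraries 29.7, 32.5 and 36.5, and Mef2d libraries 40.9, 50.7 and 61.5. HDAC1 libraries were at 38.8, 34.2 and 47.4 FPKM, HDAC2 libraries at 40.9, 40.2 and 36.0, and Mef2c libraries at 42.0, 39.99 and 38.8. Dyrk1 was the lowest group and did not overlap wild type, and Mef2d was the highest and overlapped it through its replicate 1. Neither difference from wild type passed, with log2 -0.28 in Dyrk1 (SE 0.13, adjusted p 0.149, limma) and 0.32 in Mef2d (SE 0.13, adjusted p 0.0917, limma). Mef2d replicate 1 was one of the libraries rich in B cell markers. Without it the Mef2d difference for Itgae was 0.47 and passed (adjusted p 0.0299, limma).

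Compared directly, Itgae was lower in Dyrk1 than in Mef2d libraries by 0.60 on the log2 scale (adjusted p 0.00495, limma), and all 3 Dyrk1 values lay under all 3 Mef2d values. A fit of these 2 groups alone gave an adjusted p of 0.0717 in limma. Haspin lies within the span of Itgae on the opposite strand but shares 0 exon bases with it.

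Itgal (ENSMUSG00000030830, chromosome 7, 127296260 to 127335138, plus strand) encodes alphaL, the chain particular to LFA-1. It was at 193, 187.5 and 177 FPKM in wild type, 191, 214 and 253 in Dyrk1 and 209, 208.5 and 198 in HDAC1 libraries. HDAC2 libraries held 215, 222 and 204 FPKM, Mef2c libraries 222, 218 and 205, and Mef2d libraries 213, 187 and 198. Wild type had the lowest mean, and HDAC1, HDAC2 and Mef2c ranges lay above it, yet no difference passed. The log2 differences were 0.23 in Dyrk1 (adjusted p 0.0697), 0.20 in HDAC2 (adjusted p 0.0872) and 0.21 in Mef2c (adjusted p 0.0929), each with an SE of 0.08 in limma. Itgal passed in Dyrk1 without Dyrk1 replicate 1, a library rich in B cell markers (log2 0.33, adjusted p 0.011, limma). Leaving out Dyrk1 replicate 3 also brought Itgal past the threshold in HDAC2 (adjusted p 0.0244, limma) and Mef2c (0.0256), as did leaving out Dyrk1 replicate 1 (0.0453 and 0.0469), with the differences themselves unaltered. In HDAC2 it also passed with the 3 B-cell-rich libraries left out (adjusted p 0.0491, limma).

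Itgb2 (ENSMUSG00000000290, chromosome 10, 77530252 to 77565708, plus strand) encodes the beta2 chain of LFA-1 and of the myeloid integrins. All 18 values lay between 205.5 and 250.1 FPKM, with wild type at 221, 225 and 211. HDAC2 libraries, at 236, 250.1 and 230.0 FPKM, lay above every wild-type library. The HDAC2 difference of 0.12 on the log2 scale (SE 0.05, adjusted p 0.105, limma) did not pass, and the other 4 were between -0.03 and 0.04.

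Itga6 (ENSMUSG00000027111, chromosome 2, 71745616 to 71858416, plus strand) encodes alpha6, a laminin receptor chain. Wild-type libraries held 54.3, 55.0 and 48.2 FPKM and Dyrk1 libraries 47.2, 48.4 and 55.6. HDAC1 libraries were at 61.9, 56.5 and 61.5 FPKM, HDAC2 libraries at 67.2, 56.8 and 61.9. Mef2c libraries held 53.6, 62.3 and 53.9 FPKM and Mef2d libraries 59.4, 63.1 and 57.8. Values of HDAC1, HDAC2 and Mef2d lay above wild type, but the largest difference, 0.23 in HDAC2 (SE 0.08, adjusted p 0.0521, limma), did not pass and was past the threshold in 5 of 25 alternatives. Those 5 left out wild-type replicate 2, Dyrk1 replicate 1, Dyrk1 replicate 3, HDAC2 replicate 2 or Mef2c replicate 2, with adjusted p-values in limma of 0.0312 to 0.0499. Itga6 was lower in Dyrk1 than in HDAC2 libraries by 0.29 on the log2 scale (adjusted p 0.0257, limma). That call ended without Dyrk1 replicate 1 (adjusted p 0.0907) or 2 (0.0677) and without HDAC2 replicate 1 (0.12) or 3 (0.0712), with RLE scaling (0.0633), with the 3 B-cell-rich libraries left out (0.118) and in a fit of the 2 groups alone (0.133).

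Itgb3 (ENSMUSG00000020689, chromosome 11, 104608000 to 104670476, plus strand) encodes beta3, which pairs with alphav in many cells and with alphaIIb in platelets. It was the member at the lowest level, with 16.7, 17.0 and 14.9 FPKM in wild type and 12.5, 10.5 and 15.6 in Dyrk1-labelled libraries. HDAC1 libraries held 19.9, 21.4 and 17.5 FPKM, HDAC2 libraries 19.6, 21.7 and 18.4. Mef2c libraries were at 18.1, 18.4 and 14.9 FPKM and Mef2d libraries at 21.9, 22.4 and 18.7. Dyrk1 had the lowest mean, 12.8 ± 2.57 FPKM, and Mef2d the highest, 21.0 ± 2.03 (SD, n = 3), on either side of wild type at 16.2 ± 1.17. HDAC1, HDAC2 and Mef2d ranges lay above wild type. Neither differed from wild type past the threshold, with log2 -0.33 in Dyrk1 (adjusted p 0.0841, limma) and 0.35 in Mef2d (adjusted p 0.055, limma). The differences in HDAC1, 0.26 (adjusted p 0.178, limma), and HDAC2, 0.28 (adjusted p 0.108), did not pass either. Without Dyrk1 replicate 3 the Dyrk1 difference was -0.46 and passed (adjusted p 0.0266, limma). The Mef2d difference passed without Dyrk1 replicate 2 (adjusted p 0.0336, limma), Dyrk1 replicate 3 (0.0243) or Mef2d replicate 3 (0.0429).

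Between the labelled groups Itgb3 differed in 4 of 10 pairs, all of them with Dyrk1. It was lower in Dyrk1 than in Mef2d by 0.68 on the log2 scale (SE 0.12, adjusted p 0.00152, limma), a call that held in all 25 alternatives. It was also lower than in HDAC2 by 0.61 (adjusted p 0.00358), in HDAC1 by 0.59 (adjusted p 0.00816) and in Mef2c by 0.40 (adjusted p 0.0352), each by limma. The Mef2c pair ended without Dyrk1 replicate 1 (adjusted p 0.0752) or 2 (0.137), without Mef2c replicate 1 (0.11) or 2 (0.11) and with RLE scaling (0.0662). It also ended with no filter (adjusted p 0.0618, limma), with the 3 B-cell-rich libraries left out (0.189) and in a fit of the 2 groups alone (0.172). Such a fit also ended the HDAC1 pair (adjusted p 0.0991, limma) and the HDAC2 pair (0.056). Platelet RNA was near 0 in these libraries. The 9 platelet and megakaryocyte markers summed to 1.67 to 2.92 FPKM, with Pf4 at 0 to 0.429 and Treml1 at 0 in most libraries.

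Selplg (ENSMUSG00000048163, chromosome 5, 113818536 to 113832644, minus strand) encodes PSGL-1. Wild-type libraries held 229, 242 and 233 FPKM, and Dyrk1-labelled libraries 198, 185 and 180.4. HDAC1 libraries were at 198, 209 and 196 FPKM and HDAC2 libraries at 209.5, 214 and 209.5. Mef2c libraries held 176.5, 197 and 196 FPKM and Mef2d libraries 201, 194 and 203. Every library with a deletion label lay under the lowest wild-type library. In the order of means, Dyrk1, Mef2c, Mef2d, HDAC1, HDAC2 and wild type, HDAC2 overlapped neither HDAC1 nor wild type. The wild-type mean was 234 ± 6.72 FPKM and the Dyrk1 mean 188 ± 8.97 (SD, n = 3).

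For Selplg the log2 difference from wild type was -0.32 in Dyrk1 (SE 0.05, adjusted p 0.00196, limma), -0.30 in Mef2c (adjusted p 0.00141) and -0.23 in Mef2d (adjusted p 0.00801), with the same SE. The Mef2c and Mef2d calls held in all 25 alternatives, and the Dyrk1 call in all but the fit of the 2 groups alone (adjusted p 0.101, limma). In HDAC1 the difference was -0.22 (adjusted p 0.0167, limma), and the call ended without wild-type replicate 3 (0.0578), HDAC1 replicate 1 (0.0672) or HDAC1 replicate 3 (0.054), and in a fit of the 2 groups alone (0.0502). In HDAC2 the difference was -0.15 (adjusted p 0.0497, limma) and was not past the threshold in 18 of 25 alternatives. Among these were each wild-type and each HDAC2 library left out, with adjusted p-values of 0.0723 to 0.127. With the replicate number as a block, since same-numbered libraries of these 2 groups deviated together, the adjusted p in limma was 0.0685. Selplg differed in 1 pair of labelled groups, being lower in Dyrk1 than in HDAC2 by 0.17 on the log2 scale (adjusted p 0.0426, limma), and that call ended in 16 of 25 alternatives.

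**Figure D3:**
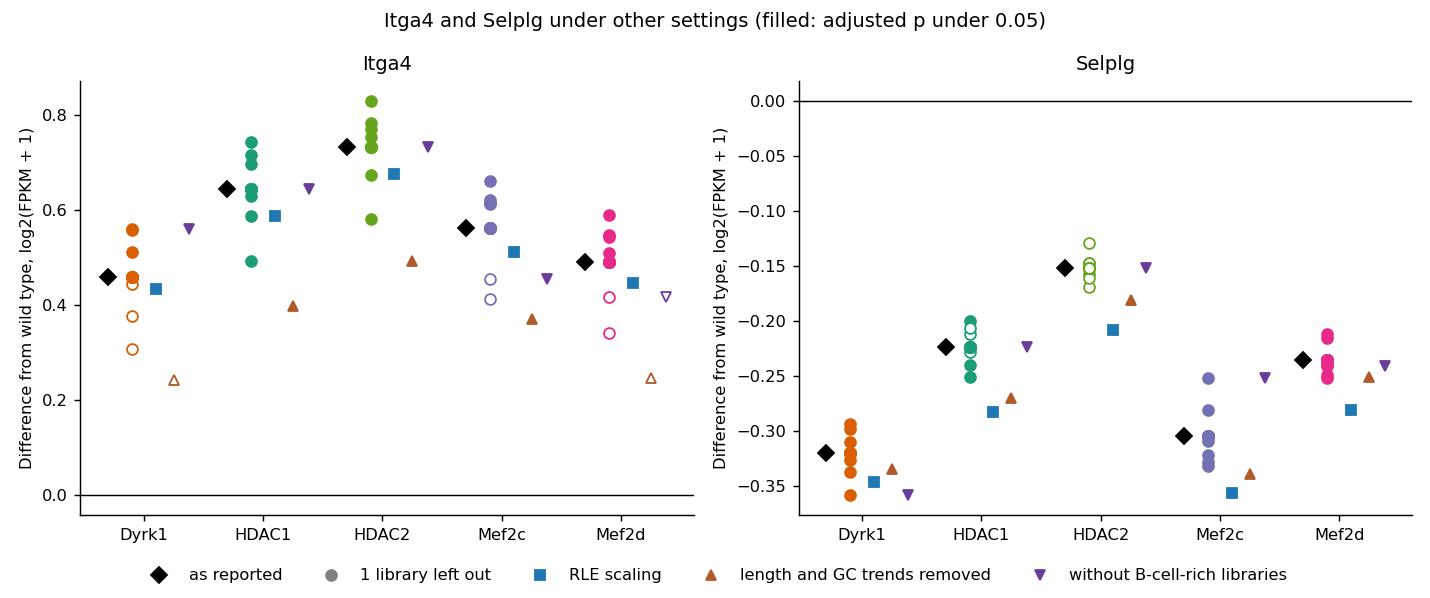
Difference from wild type on the log2(FPKM + 1) scale for Itga4 (left) and Selplg (right) as reported and under other settings, by deletion label, filled where the adjusted p is under 0.05. Signs do not alter in any setting drawn, while open symbols mark calls that end, among them 2 of Itga4 with length and GC trends removed.

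Cd44 (ENSMUSG00000005087, chromosome 2, 102811141 to 102901665, minus strand) encodes the hyaluronan receptor. Wild-type libraries held 29.5, 26.8 and 26.0 FPKM, and Mef2c-labelled libraries 32.8, 35.3 and 29.9. Dyrk1 libraries held 26.7, 26.4 and 39.6 FPKM, the last of which was the highest of the 18 values. HDAC1 libraries were at 29.2, 29.7 and 24.6 FPKM, HDAC2 at 26.5, 33.1 and 27.1, and Mef2d at 31.7, 28.6 and 29.7. The Mef2c range lay just above wild type, with a log2 difference of 0.24 (SE 0.13, adjusted p 0.22, limma), and the other 4 groups overlapped wild type. Dyrk1 replicate 3 was also the highest of its group in all 8 integrin genes.

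Ratios of RNAs whose products pair were formed within each library and are given as a description. Itga4 to Itgb7 was 0.116, 0.115 and 0.0824 in wild type. The 15 libraries with a deletion label ran from 0.132 to 0.191, without overlap. Itga4 has an exon union of 13978 bases and Itgb7 one of 2770. A trend on gene length would enter this ratio, which was not corrected for it. By FPKM the alpha4 RNA was the scarcer partner in every library. Against its other partner the pattern differed. Itga4 to Itgb1 was 0.326, 0.392 and 0.235 in wild type and 0.635, 0.454 and 0.575 in HDAC2 libraries, which lay above it. The other 4 groups, at 0.264 to 0.454, overlapped wild type in this ratio. Itgal to Itgb2 was 0.872, 0.832 and 0.839 in wild type and 0.930, 0.979 and 1.15 in Dyrk1 libraries. HDAC1 (0.988, 0.896 and 0.945), HDAC2 (0.912, 0.889 and 0.887) and Mef2c libraries (1.04, 0.99 and 0.936) also lay above wild type. Mef2d libraries, at 0.938, 0.853 and 0.862, overlapped wild type in this ratio. The ratio of Itgae to Itgb7 was 0.126, 0.157 and 0.207 in Mef2d libraries and 0.121 to 0.128 in wild type. Itgb3 to Itgav, the alphav partner, was 1.58, 1.31 and 1.67 in Dyrk1 libraries and at least 2.12 in each of the other 15. In Dyrk1 libraries the mean of Itgb3 was the lowest of the 6 groups and Itgav rose against wild type.

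**Figure D4:**
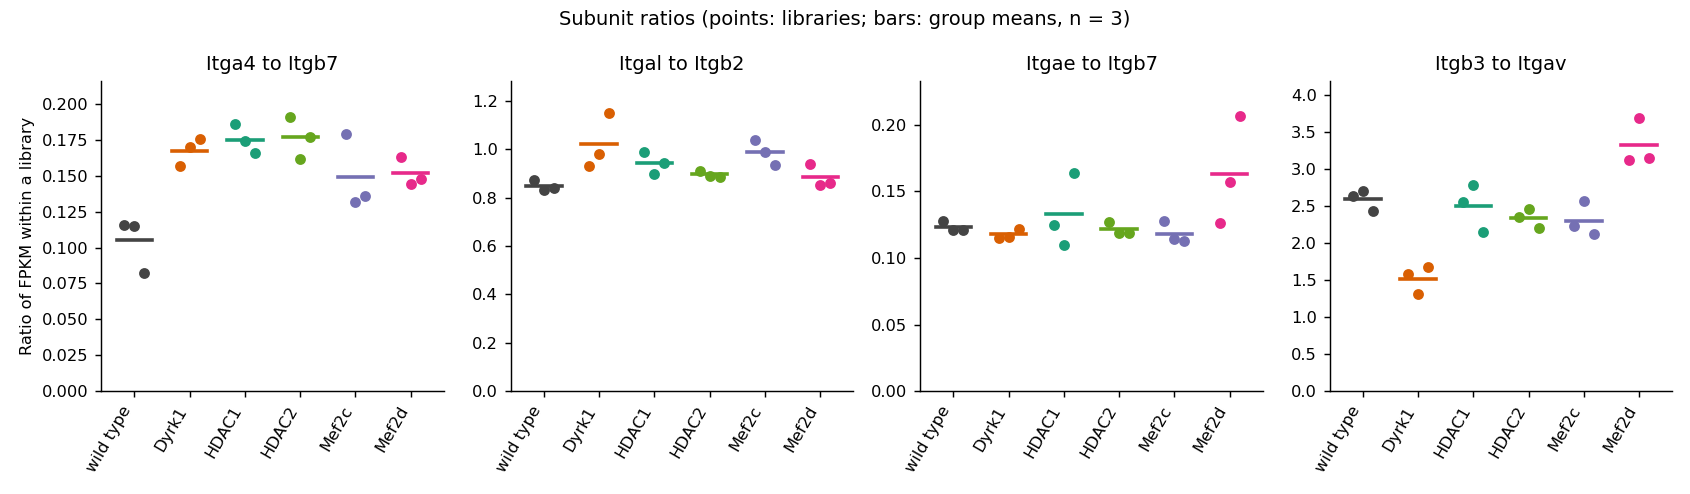
Ratio of FPKM within a library for 4 pairs of subunit RNAs, by group, with points for libraries and bars for group means (n = 3). The wild-type points of Itga4 to Itgb7, at most 0.116, lie under all libraries with a deletion label, and the Dyrk1 points of Itgb3 to Itgav, at most 1.67, lie under all other libraries. Ratios are not corrected for trends on gene length.

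The paired designs of 2 deacetylases and 2 MEF2 factors were compared directly. Between HDAC1 and HDAC2 libraries limma called 0 of the 10 genes, with 2 at an unadjusted p under 0.05, where 1.50% of all genes passed. Between Mef2c and Mef2d it also called 0, with 2 at an unadjusted p under 0.05, against 3.06% of all genes. The other pairs of labelled groups were added after values had been seen. Dyrk1 and HDAC2 differed in 4 of 10 genes (17.4% of all genes). Those 4, Itgb7, Itga6, Itgb3 and Selplg, were lower in Dyrk1, a direction in which 9.47% of all genes passed. Dyrk1 differed from Mef2c in 2, Itgb7 and Itgb3 (19.7% of all genes), from Mef2d in 2, Itgae and Itgb3 (17.0%), and from HDAC1 in 1, Itgb3 (9.50%). HDAC2 and Mef2c differed in Itgb1 alone (6.45% of all genes). For the remaining pairs limma called 0 of 10: HDAC1 and Mef2c (9.76% of all genes, 1 member at an unadjusted p under 0.05), HDAC1 and Mef2d (7.09%, 1 member) and HDAC2 and Mef2d (4.30%, 2 members).

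Other genes of the adhesion pathway were counted from lists. Their counts are to be read against the shares of all genes called in either direction, which were 17.3% in Dyrk1, 12.5% in HDAC1, 25.6% in HDAC2, 19.0% in Mef2c and 21.9% in Mef2d. Examples are taken from calls that held in at least 24 of 25 alternatives, a choice made after seeing them. Other calls are in the counts only, apart from those of Hmmr, Icam1, Vcam1, Rock1, Rock2, Smad4, Tgfb1, Tgfbr1 and Tbx21 that are named below. Of 18 other integrin genes 10 passed the filter, and 1 rose in Dyrk1, 2 in HDAC1, 1 in HDAC2 and 2 in Mef2c libraries, with 1 fall in HDAC2 and 0 calls by limma in Mef2d. A count of 1 or 2 in 10 is 10% or 20%, near those shares or below them. Itgav, the alphav chain, was at 6.25 ± 0.105 FPKM in wild type, 8.51 ± 0.254 in HDAC2 (log2 0.39, adjusted p 0.00319, limma) and 8.39 ± 0.788 in Dyrk1 (log2 0.37, adjusted p 0.00482). Itgb5, another partner of alphav, rose in HDAC1 from 1.34 ± 0.199 to 3.94 ± 0.145 FPKM (log2 1.08, adjusted p 0.00262, limma). The list of counter-receptors of integrins, selectins and CD44, which also holds Hmmr, had 9 of 22 members tested. Icam1, whose product binds LFA-1, rose in Dyrk1 from 19.4 ± 0.637 to 27.6 ± 1.92 FPKM (log2 0.49, adjusted p 0.00368, limma), and 2 genes rose and 1 fell there. In HDAC1, HDAC2, Mef2c and Mef2d the list had 1, 1, 0 and 1 rises and 0, 2, 3 and 2 falls. In either direction this is 33.3% of the tested genes in Dyrk1, 11.1% in HDAC1 and 33.3% in each of HDAC2, Mef2c and Mef2d. Hmmr was among the rises in Dyrk1 and among the falls in HDAC2, Mef2c and Mef2d. Less stable rises of Icam1 were called in HDAC1 (log2 0.374, adjusted p 0.0176, limma), HDAC2 (log2 0.265, adjusted p 0.0451) and Mef2d (log2 0.278, adjusted p 0.0419). Less stable falls of Vcam1 were called in Mef2c (log2 -1.3, adjusted p 0.0432, limma) and Mef2d (log2 -1.29, adjusted p 0.041).

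Activation and actin linkage genes, which couple integrins to the cytoskeleton, had 27 of 33 members tested. There were 1, 1, 3, 5 and 6 rises and 3, 0, 1, 2 and 2 falls in Dyrk1, HDAC1, HDAC2, Mef2c and Mef2d. In either direction this is 14.8%, 3.70%, 14.8%, 25.9% and 29.6% of the list, beside 17.3%, 12.5%, 25.6%, 19.0% and 21.9% of all genes. Actn1, an actin crosslinker, fell in Dyrk1 from 67.9 ± 5.55 to 39.1 ± 2.72 FPKM (log2 -0.78, adjusted p 0.000116, limma). Vcl, which encodes vinculin, rose in Mef2d from 0.842 ± 0.134 to 2.70 ± 0.180 FPKM (log2 1.01, adjusted p 0.000123, limma) and in Mef2c to 1.77 ± 0.277 (log2 0.58, adjusted p 0.00547). Pxn, which encodes paxillin, a binder of the alpha4 tail, fell in Mef2c from 33.3 ± 0.439 to 26.0 ± 0.965 FPKM (log2 -0.35, adjusted p 0.000148, limma) and in Mef2d to 28.3 ± 1.41 (log2 -0.23, adjusted p 0.00435).

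Genes that build selectin ligands had 18 of 23 members tested, with 2 rises in each comparison and 2, 1, 2, 1 and 0 falls in the same order of groups. C1galt1, the enzyme that extends the core of mucin-type sugars, rose in all 5 groups while Selplg fell. Its mean rose from 15.3 ± 1.05 FPKM to between 19.2 ± 0.940 (Mef2c) and 20.8 ± 0.717 (Mef2d), with log2 differences of 0.31 to 0.42 and adjusted p-values in limma of 0.000434 to 0.00292. The list of CD44 partners and of ERM proteins, which tie CD44 and PSGL-1 to actin, had 10 of 10 tested. There were 2, 1, 1, 1 and 2 rises and 1 fall, Ezr in Mef2d (log2 -0.22, adjusted p 0.012, limma). All rises were of Rock1 or Rock2, and each of those calls ended with length and GC trends removed.

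Regulators of homing receptor genes had 22 of 23 tested, with 3, 3, 5, 1 and 2 rises and 0, 1, 2, 5 and 1 falls. Klf2, a factor that sustains genes of recirculation, fell in Mef2c from 239 ± 14.9 to 154 ± 14.5 FPKM (log2 -0.63, adjusted p 0.00532, limma). Tgfb1, the cytokine that induces alphaE, fell in Mef2d from 121 ± 3.06 to 103 ± 1.23 FPKM (log2 -0.23, adjusted p 0.00512, limma), and its receptor gene Tgfbr1 rose from 18.4 ± 2.39 to 24.6 ± 1.45 (log2 0.41, adjusted p 0.00661). Smad4, a transducer of that signal, rose in HDAC1, HDAC2 and Mef2c by 0.35, 0.33 and 0.28 on the log2 scale (adjusted p 0.00351, 0.00283 and 0.00455, limma). Less stable rises of Smad4 were called in Mef2d (log2 0.23, adjusted p 0.0135, limma) and Dyrk1 (log2 0.18, adjusted p 0.0484). Tgfb1 also fell in HDAC2 (adjusted p 0.0395, limma) and Mef2c (0.0144), and Tgfbr1 also rose in HDAC2 (0.0391). Smad2, Smad3, Smad7 and Tgfbr2, on the same list, passed in no comparison with wild type. Tbx21 rose in HDAC2 from 4.17 ± 1.01 to 10.4 ± 3.21 FPKM (log2 1.12, adjusted p 0.00706, limma). Less stable rises of Tbx21 were called in HDAC1 (log2 0.997, adjusted p 0.022, limma) and Dyrk1 (log2 0.882, adjusted p 0.0294).

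Genes with the most alike pattern over the 18 libraries were found by Pearson's r of log2(FPKM + 1) among 10624 genes. All genes share the depth and group of each library, so r is a description. For Itga4 they were Csnk1g1 (r 0.967) and Tnik (0.952), and for Selplg Tesc (0.924) and Rasl11b (0.884). Itgb3 was most like Il6st (0.92) and Espn (0.907), and Itgal most like Mfsd6 (0.913) and Dhx8 (0.907). The values were lower for Itga6 with Nlgn2 (0.886) and Fam210a (0.873), Cd44 with Calu (0.869) and Arf3 (0.861), and Itgb7 with Abcb9 (0.847) and Spcs2 (0.835). For Itgb1 they were Unc119b (0.825) and Cobll1 (0.797), for Itgb2 Zfp683 (0.804) and Padi2 (0.784), and for Itgae Ahcyl2 (0.787) and Arhgap20 (0.772).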

How the data were processed

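RNA-seq was analysed for 18 libraries of sorted mouse Treg in 6 labelled groups of 3, from 1 deposited table in which 0 columns were left unmapped. The deposited values were taken to be FPKM, although the authors name no unit in table or labels. It was read from the values, since multiplying them by gene length and a factor per library returns whole reads, and this gave depths of 15.9 to 24.1 M reads. The same holds for RPKM, which would look alike. Per the submitters' processing notes the build is mm10 and the tools include STAR and HTSeq. Versions, strand setting and annotation release are not given in the sources used here. Of 35275 identifiers 34490 had a symbol in GENCODE M21, from which positions and exon lengths were taken, and promoter stretches are from RefSeq (4 of 10 members matched).

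In R 4.3.3 with limma 3.58.1, log2(FPKM + 1) was fitted over all libraries with group means and a variance trend (12 residual degrees of freedom). Genes reaching 1 FPKM in 3 or more libraries were kept, 12223 in number. limma's p-values were adjusted by Benjamini-Hochberg across these genes, and a call means an adjusted p under 0.05. Folds are differences on the log2(FPKM + 1) scale, which understates changes of low genes, and group values are mean ± SD. Members and gene lists were chosen with earlier results of these data known. Named were the 10 members, the targeted genes, up to 4 called genes per pathway list and comparison, and the 2 genes most alike to each member. Not every gene that this rule selects is reported here. The labels number replicates 1 to 3 without saying what a number shares. Deviations of same-numbered libraries from their group means correlated above 0.1 in all 3 pairs in 3 of 7 comparisons: wild type with HDAC2 (0.325, 0.236 and 0.16), HDAC1 with HDAC2 (0.21, 0.428 and 0.132) and Mef2c with Mef2d (0.313, 0.396 and 0.31). The pairing there comes from the data alone. The 25 alternatives were RLE scaling, a pseudocount of 0.1, no filter, a replicate block, removal of length and GC trends, a fit of the 2 groups alone, each of the 18 libraries left out, and the 3 libraries rich in B cell markers left out, the last chosen after seeing the data.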

Additional observations from a re-analysis of the deposited data

How the results depend on the processing

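Of 3750 values of the 10 genes under alternatives, 3615 kept their side of the threshold, 102 lost and 33 gained the call, and 0 reversed while called. Uncalled values could alter sign and still count as kept. The log2 difference of Itgb7 in HDAC2 against wild type, for example, ran from -0.0792 to 0.0375. Among genes of the pathway lists, Rock2 in HDAC2 (-0.0029) and Mef2d (-0.037) and Satb1 in Mef2d (-0.081) turned negative on the log2 scale with length and GC trends removed, and were called higher otherwise. The number of the 10 genes called in Dyrk1 against wild type moved from 3 to 1 with no filter, 1 with length and GC trends removed and 0 in a fit of the 2 groups alone. In HDAC1 it moved from 2 to 1 in that fit. In HDAC2 it moved from 2 to 1 with no filter, with the replicate block and in that fit, and in Mef2d from 2 to 1 with length and GC trends removed, which also took the F test from 7 to 3. With 1 library left out the counts ran from 1 to 3 for the Dyrk1, HDAC1 and Mef2d comparisons, from 1 to 4 for HDAC2 and Mef2c, and from 4 to 7 for the F test, and stayed at 0 to 0 for HDAC1 against HDAC2 and for Mef2c against Mef2d. Over all genes, the Dyrk1 count moved from 2116 to 62 in the fit of the 2 groups alone, and to between 1186 and 2595 with 1 library left out. The HDAC1 count of 1533 ran from 421 to 2108 and the HDAC2 count of 3123 from 1329 to 3839 with 1 library left out. The Mef2c count of 2322 was 1355 alone and 1307 when the 3 libraries with most B cell markers were left out, and 1150 to 2949 with 1 left out. The Mef2d count of 2677 was 1467 without those libraries and 1079 to 3318 with 1 left out. HDAC1 against HDAC2 gave 183, 97 alone and 54 to 296 with 1 left out, and Mef2c against Mef2d 374 and 240 to 431. Such fits hold fewer samples, and the cause of these moves was not tested. Where replicate numbers paired the libraries, the replicate block, fitted over all 18, ended the Selplg call in HDAC2 (adjusted p 0.0685, limma) and changed no other call of the 10 genes, and it moved counts over all genes from 3123 to 2867 in HDAC2, from 183 to 160 between HDAC1 and HDAC2 and from 374 to 337 between Mef2c and Mef2d. Elsewhere libraries share only a number, with correlations down to -0.453, and 6 of 18 libraries correlated best with their own number; there the block ended Itgb7 (0.058) and Selplg (0.0621) between Dyrk1 and HDAC2. At 3 libraries a group, log2 differences of the members carried standard errors of 0.05 to 0.15, which limits what could be called.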

Other observations

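Adhesion genes sit beside other features of resting T cells, so a list of 11 genes of resting and central T cells was read too. In Dyrk1-labelled libraries 7 of 11 fell and 0 rose, with a median log2 difference of -0.45 beside 0.02 over all genes, of which 6.19% fell. Ly6c1, a surface protein of resting and memory cells whose reads may be shared with its close paralog, fell from 97.3 ± 16.4 to 21.5 ± 7.94 FPKM (log2 -2.19, adjusted p 0.000129, limma). Igfbp4, an insulin-like growth factor binder, fell from 115 ± 14.4 to 52.9 ± 5.89 FPKM (log2 -1.10, adjusted p 0.000679, limma). Igfbp4 also fell in Mef2d (log2 -0.88, adjusted p 0.00186, limma) and Mef2c libraries (log2 -0.75, adjusted p 0.00421). The list had 3 falls in HDAC1, 0 in HDAC2, 3 in Mef2c and 1 in Mef2d, and 0, 1, 1 and 1 rises, beside 12.5%, 25.6%, 19.0% and 21.9% of all genes called in either direction.

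Marker lists of other cell types were counted against wild type. Their counts are to be read against the shares of all genes called in either direction. These were 17.3% in Dyrk1, 12.5% in HDAC1, 25.6% in HDAC2, 19.0% in Mef2c and 21.9% in Mef2d. Counts such as 2 of 8 Treg markers in HDAC2 or in Mef2d are near these shares. B cell markers passed in 0 of 10 cases by limma in each comparison, with medians of 0.34 to 1.07 on the log2 scale. CD8 T and NK cell markers had 4 of 10 rises in HDAC2, 1 fall in Mef2c and 2 falls in Mef2d. Of 6 gamma-delta T and NKT markers tested 1 rose in HDAC1 and 2 fell in Mef2d. Of 9 myeloid and dendritic markers tested 1 rose in each of Dyrk1, Mef2c and Mef2d. Neutrophil markers had 0 calls by limma among 4 tested. The sum of all 6 ran from 5.52 FPKM in Mef2d replicate 2 to 474 in Dyrk1 replicate 1. The 3 libraries rich in B cell markers also held the highest neutrophil and myeloid sums of their groups. Dyrk1 replicate 1 held the highest sum of CD8 T and NK markers as well, 147.9 FPKM. Wild-type replicate 3 had the highest neutrophil and erythroid sums of its group, 197 and 388.6 FPKM. What these sums mean for the 10 genes was not tested. Of 5 erythroid markers tested 1 fell in each of Dyrk1, Mef2c and Mef2d. Of the 8 Treg markers 1 rose in Dyrk1, 1 in HDAC1, 2 in HDAC2 and 2 in Mef2d, with 0 falls.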
